A study of Mus musculus with 16 samples.

Results

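The question addressed here is whether the loss of bacterial acetylcholine changed gene expression differently in the ileum and in the colon of the same mice. For each gene the strain effect, Δchat minus wild-type (WT), was taken in each region, and the interaction is the ileum effect minus the colon effect. A negative interaction marks a gene that was lower in Δchat ileum than the colon effect would give, and a positive one marks the reverse. All 16 libraries of the 16 in the series entered. Ileum and colon libraries of the same strain and number were taken as those of 1 mouse, 8 mice in all, which rests on shared library numbers and on no label that states it. After filtering, 15198 of the 35647 genes in the table had enough counts to be tested.

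The 4 groups, of 4 libraries each, were ileum WT, ileum Δchat, colon WT and colon Δchat. All the mice carried a wild-type genotype, had been raised germ-free and were then colonized for 5 weeks with Bifidobacterium breve alone, either its WT strain or the Δchat strain, which does not produce acetylcholine. No germ-free group was analysed here. The age, sex and mouse strain are not given in the sources used here. RNA came from lamina propria cells collected on a 40% and 80% Percoll gradient, a density step that enriches immune cells without sorting them. Depth ran from 15940467 to 23612561 estimated counts per library. Ptprc, the pan-leukocyte marker CD45, lay between 588 and 1304 CPM (CPM, the count relative to the scaled library total) in every library, and markers of T cells (Cd3e), B cells (Cd79a) and macrophages (Csf1r) were detected in all of them. Stromal genes were present too: the 23 stroma and smooth muscle genes summed to between 2516 and 11292 CPM.

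Acetylcholine is a signalling molecule of nerves and of some immune and epithelial cells, and certain gut bacteria make it as well. The lamina propria of both regions holds plasma cells, T cells, macrophages and granulocytes, the last comprising eosinophils, neutrophils and mast cells. Granulocytes and macrophages turn arachidonic acid into eicosanoids through lipoxygenases, release matrix-cutting proteases, and are held in check in part by regulatory T cells, which carry the transcription factor Foxp3 and secrete interleukin 10.

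The interaction was called for 9 genes at an adjusted p under 0.05 (edgeR quasi-likelihood test, Benjamini-Hochberg over all genes tested), which is 0.0592% of the genes tested, and all 9 values were negative (0 positive; over all genes tested 47.1% were negative and 52.9% positive). They were Alox15 and Alox5ap of the lipoxygenase pathway, the proteases Mmp9 and Mmp25, the protease inhibitor Serpinb2, the myeloid genes Rab44 and Retnlg, the cytokine gene Il1a and the Wnt ligand gene Wnt11. Of these, 8 were also called lower in Δchat ileum, by 2.96-fold to 8.83-fold, while their colon effects were positive, between 0.05 and 1.08 on the log2 scale, and did not pass the test. Alox5ap was the exception: it was called higher in Δchat colon and did not pass in ileum. In each of the 9 genes the ileum minus colon difference of the 4 Δchat mice lay below that of the 4 WT mice without overlap (exact 2-sided permutation test, p = 0.0286, the smallest p that 4 against 4 mice allow). The 9 genes were chosen by the interaction in these same libraries, so their separation and this p are no independent support. Such separation of the 8 mice was seen in 752 genes (4.95%), with Δchat lower in 316 (2.08%) and higher in 436 (2.87%). With the mouse as a block, edgeR called 3 genes, 0.0197% of those tested: Wnt11 again, and Tnfrsf9 and the antibody segment Igkv1-135, which were not among the 9. The adjusted p of the other 8 then lay between 0.144 and 0.318.

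The number of calls was 0 when any 1 of 9 libraries was left out (colon WT replicate 1, colon Δchat replicates 2 and 4, ileum WT replicates 1, 2 and 3, ileum Δchat replicates 1, 3 and 4), 1 without colon WT replicate 2, 3 without colon WT replicate 3 and 35 without ileum Δchat replicate 2. The sign of the 9 genes was negative in each of the 32 alternatives run, while the adjusted p of Wnt11 reached at most 0.0894 and that of Retnlg 0.342. The alternatives reuse the libraries by which these genes were chosen, so the constant sign is no independent support.

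**Figure D1:**
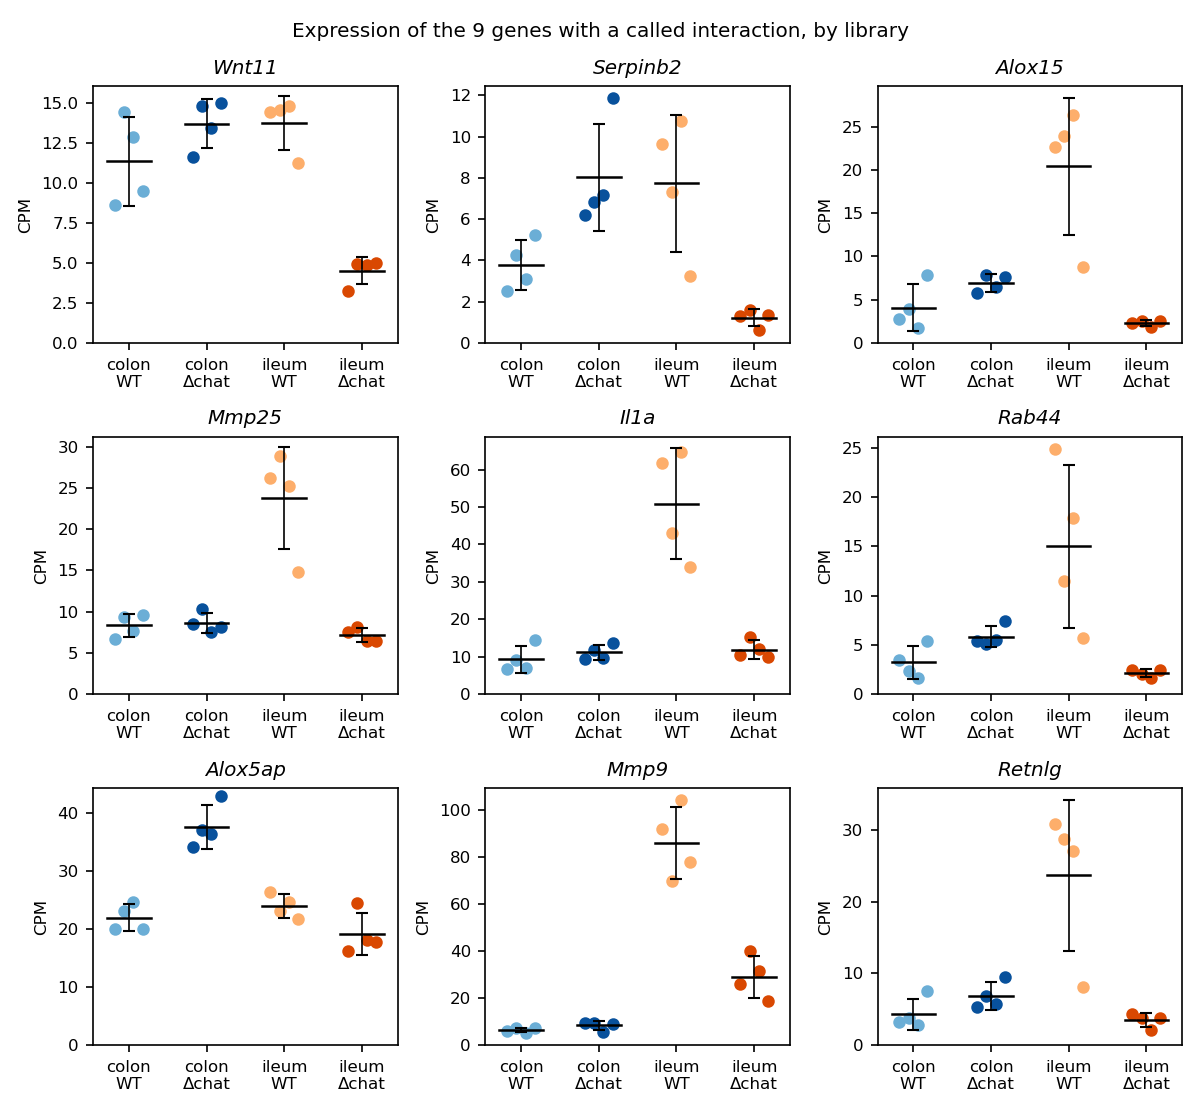
Expression in CPM (linear axes from 0) of the 9 genes with a called interaction in the 16 libraries; points are libraries, bars are the mean and its SD over 4 libraries of a group. In 8 genes the Δchat ileum libraries lie below every WT ileum library, while for Alox5ap the Δchat colon libraries, at 34.1 to 42.995 CPM, lie above every WT colon library.

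Promoters are shown for genes that share a called negative interaction, as a view of the letters before their start sites. Whether their levels vary together was not tested. Of the 9 called genes, 5 were found in the RefSeq promoter table (build GRCm38.p6), and 4 are printed: Il1a, the cytokine gene, Serpinb2, with the largest colon effect, Retnlg, a myeloid gene, and Wnt11, the gene called with and without the block. Each line gives the 250 bases before the first start listed, 5′ to 3′ on the gene's strand, with capitals for matches to an AP-1 motif (TGANTCA, both strands, the site of Fos and Jun factors), a C/EBP-type motif (TTGCNNAA, both strands, a site of myeloid factors) and a TATA box (TATAAA, the gene's strand only).
Il1a: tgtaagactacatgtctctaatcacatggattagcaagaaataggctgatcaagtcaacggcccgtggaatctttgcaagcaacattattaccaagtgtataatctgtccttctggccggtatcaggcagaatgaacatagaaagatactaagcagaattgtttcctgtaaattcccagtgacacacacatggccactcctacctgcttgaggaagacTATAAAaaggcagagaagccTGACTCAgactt
Serpinb2: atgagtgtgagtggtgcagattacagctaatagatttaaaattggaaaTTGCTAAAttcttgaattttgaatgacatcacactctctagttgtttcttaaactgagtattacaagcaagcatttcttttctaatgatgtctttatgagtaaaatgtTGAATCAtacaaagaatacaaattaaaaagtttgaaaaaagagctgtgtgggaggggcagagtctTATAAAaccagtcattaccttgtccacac
Retnlg: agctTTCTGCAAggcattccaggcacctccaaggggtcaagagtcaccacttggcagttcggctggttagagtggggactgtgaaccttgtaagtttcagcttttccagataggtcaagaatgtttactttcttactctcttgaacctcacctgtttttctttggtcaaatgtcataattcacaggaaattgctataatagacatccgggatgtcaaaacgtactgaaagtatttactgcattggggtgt
Wnt11: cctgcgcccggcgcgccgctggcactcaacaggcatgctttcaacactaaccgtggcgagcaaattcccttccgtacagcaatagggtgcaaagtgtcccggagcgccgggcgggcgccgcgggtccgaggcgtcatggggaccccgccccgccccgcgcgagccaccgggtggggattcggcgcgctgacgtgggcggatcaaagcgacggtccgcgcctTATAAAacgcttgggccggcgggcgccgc
The Il1a stretch is chr2:129309973-129310222 on the minus strand, that of Serpinb2 is chr1:107511173-107511422, that of Retnlg is chr16:48872358-48872607 and that of Wnt11 is chr7:98834862-98835111, the last 3 on the plus strand. An AP-1 match starts 12 bases before the start of Il1a and 94 bases before that of Serpinb2, and 6.87% of 27025 mouse promoters of this length hold one. C/EBP-type matches, at 202 bases before Serpinb2 and 246 bases before Retnlg, occur in 9.55% of them. A TATA box lies 32 bases before Il1a and 29 bases before both Serpinb2 and Wnt11, against 8.12% of all promoters with one anywhere in the window. The fifth gene, Mmp25, has none of the 3 motifs in these letters, and the motifs do not overlap each other. Such matches describe the sequence and are no evidence of binding.

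Alox15, the 12/15-lipoxygenase of eosinophils and resident macrophages, had the largest interaction of the 9 called genes. It read 22.7, 23.9, 26.3 and 8.73 CPM in WT ileum (mice 1 to 4) and 2.35, 2.56, 1.80 and 2.53 CPM in Δchat ileum. In colon it read 2.79, 3.91, 1.76 and 7.90 CPM with WT and 5.74, 7.89, 6.51 and 7.66 CPM with Δchat. The ileum groups did not overlap, the colon groups did at the single high WT library, and WT mouse 4 was at once the lowest WT ileum library and the highest WT colon library. Alox15 fell 8.83-fold in ileum (log2 change -3.14 ± 0.42, SE; adjusted p = 0.00738) and differed by 0.77 ± 0.39 in colon (adjusted p = 0.361), an interaction of -3.92 ± 0.56 (adjusted p = 0.0269 in edgeR, 0.188 with the mouse as block).

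Alox5ap encodes the protein that hands arachidonic acid to 5-lipoxygenase, the first step to leukotrienes. Its levels in colon were 20.04, 23.2, 24.6 and 19.97 CPM with WT and 34.1, 37.0, 36.4 and 42.995 CPM with Δchat, against 26.5, 23.1, 24.7 and 21.8 CPM and 16.3, 24.5, 18.1 and 17.7 CPM in ileum. Here the colon groups stood apart and the ileum groups overlapped at Δchat replicate 2. Alox5ap rose in colon (0.78 ± 0.12 log2, adjusted p = 0.0372), its ileum value of -0.33 ± 0.12 did not pass (adjusted p = 0.341), and the interaction was -1.10 ± 0.18 (adjusted p = 0.0348 in edgeR, 0.144 with the mouse as block). Among 29 eicosanoid genes tested of 30 listed, these 2 were called, 23 had a negative interaction and the median was -0.52, beside 47.1% negative and a median of 0.021 over all genes tested. In 7 the Δchat mice lay below the WT mice without overlap, where 2.08% of all genes tested did. Alox5, the 5-lipoxygenase itself, had an interaction of -1.65 ± 0.42 (adjusted p = 0.476), Ltb4r1, a leukotriene B4 receptor, one of -1.07 ± 0.31 (adjusted p = 0.510), and Ltc4s, leukotriene C4 synthase, one of -0.69 ± 0.28 (adjusted p = 0.619). None of these 3 passed, although the 8 mice did not overlap in any of them.

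The protease genes differed by region in their WT level as well. Mmp9, gelatinase B, stored in neutrophil granules and also made by macrophages, read 91.8, 69.5, 104 and 77.7 CPM in WT ileum and 25.9, 39.9, 31.5 and 18.8 CPM in Δchat ileum, and only 5.07 to 9.49 CPM in the 8 colon libraries. Mmp25, a membrane-anchored metalloproteinase of leukocytes, read 26.3, 28.9, 25.3 and 14.9 CPM in WT ileum, 7.59, 8.17, 6.47 and 6.43 CPM in Δchat ileum and 6.68 to 10.4 CPM in colon. With Δchat, ileum Mmp25 overlapped its colon range, and ileum Mmp9 stayed above colon in each of the 4 mice. Both fell in ileum, Mmp9 by 1.56 ± 0.22 (adjusted p = 0.0116) and Mmp25 by 1.73 ± 0.19 on the log2 scale (adjusted p = 0.00254), beside colon values of 0.38 ± 0.23 and 0.05 ± 0.19. Their interactions were -1.95 ± 0.32 (adjusted p = 0.0388) and -1.79 ± 0.27 (adjusted p = 0.0293).

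Serpinb2 encodes plasminogen activator inhibitor 2, made by activated myeloid cells. It read 9.65, 7.30, 10.8 and 3.23 CPM in WT ileum and 1.31, 1.58, 0.643 and 1.37 CPM in Δchat ileum, while in colon it read 2.52, 4.27, 3.12 and 5.25 CPM with WT and 6.22, 6.82, 7.18 and 11.9 CPM with Δchat. It was the single called gene whose groups stood apart in both regions, and in opposite directions. The ileum value was -2.66 ± 0.39 (adjusted p = 0.0140), the colon value of 1.08 ± 0.36 missed the threshold (adjusted p = 0.181), and the interaction was -3.75 ± 0.53 (adjusted p = 0.0269 in edgeR, 0.169 with the mouse as block).

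Rab44, a large Rab GTPase of granulocytes and mast cells, and Retnlg, a resistin-like secreted protein of myeloid cells, followed the layout of Alox15. Rab44 read 24.9, 11.5, 17.9 and 5.67 CPM in WT ileum against 2.48, 2.07, 1.59 and 2.49 CPM in Δchat ileum, and 1.60 to 5.42 CPM against 5.05 to 7.46 CPM in colon. Retnlg read 30.9, 28.8, 27.1 and 8.07 CPM in WT ileum against 4.32, 3.70, 2.10 and 3.77 CPM in Δchat ileum, and 2.76 to 7.504 CPM against 5.25 to 9.53 CPM in colon. WT mouse 4 was again the lowest in ileum and the highest in colon of its strain, as it was for Serpinb2, Mmp25 and Il1a. Both fell in ileum (Rab44 -2.80 ± 0.42, Retnlg -2.78 ± 0.42, adjusted p = 0.0144 for each), and their interactions were -3.67 ± 0.58 (adjusted p = 0.0348) and -3.45 ± 0.57 (adjusted p = 0.0438). Without both libraries of WT mouse 4, an alternative chosen after seeing the data, the fit with the mouse as block called 14 genes, 7 of the 9 among them, with Alox15 at -4.79 and Retnlg at -4.20.

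Il1a encodes interleukin 1 alpha, an alarm cytokine held in cells and released on damage. It read 61.7, 43.0, 64.8 and 34.0 CPM in WT ileum and 10.5, 15.2, 12.1 and 9.77 CPM in Δchat ileum, beside 6.68 to 14.3 CPM in WT colon and 9.40 to 13.6 CPM in Δchat colon. All WT ileum libraries lay above the other 12. The fall in ileum was 2.10 ± 0.26 on the log2 scale (adjusted p = 0.00464), the colon value was 0.27 ± 0.26, and the interaction was -2.37 ± 0.36 (adjusted p = 0.0325). Of 32 inflammatory cytokine and chemokine genes tested, Il1a alone was called, 24 had a negative interaction and the median was -0.49, beside 0.0592% called, 47.1% negative and a median of 0.021 over all genes tested. Cxcl3, a neutrophil-attracting chemokine, came next at -3.79 ± 0.68 (adjusted p = 0.0924) and fell in ileum from 6.18 to 17.8 CPM with WT to 0.926 to 2.22 CPM with Δchat (adjusted p = 0.0296). Il6 also fell in ileum (-1.34 log2, adjusted p = 0.0296), and its interaction of -0.88 ± 0.33 did not pass.

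Wnt11, a ligand of the beta-catenin-independent Wnt branch, had overlapping WT levels in the 2 regions. The WT libraries read 14.5, 14.5, 14.8 and 11.2 CPM in ileum and 8.59, 14.5, 12.9 and 9.48 CPM in colon. The Δchat libraries read 3.27, 4.96, 4.89 and 5.01 CPM in ileum and 11.6, 14.8, 13.4 and 14.97 CPM in colon. All 4 Δchat ileum libraries lay below the other 12. Wnt11 fell 3.02-fold in ileum (-1.60 ± 0.18 log2, adjusted p = 0.00254), its colon value was 0.27 ± 0.18 (adjusted p = 0.482), and its interaction of -1.87 ± 0.25 passed in edgeR without (adjusted p = 0.0269) and with the mouse as block (adjusted p = 0.0257). Among 31 Wnt pathway genes tested, Wnt11 alone was called, and 25 had a negative interaction with a median of -0.31. Over all genes tested 0.0592% were called, 47.1% were negative and the median was 0.021. The median of the Wnt genes ran from -0.61, without ileum Δchat replicate 3, to -0.23, without both libraries of WT mouse 4.

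**Figure D2:**
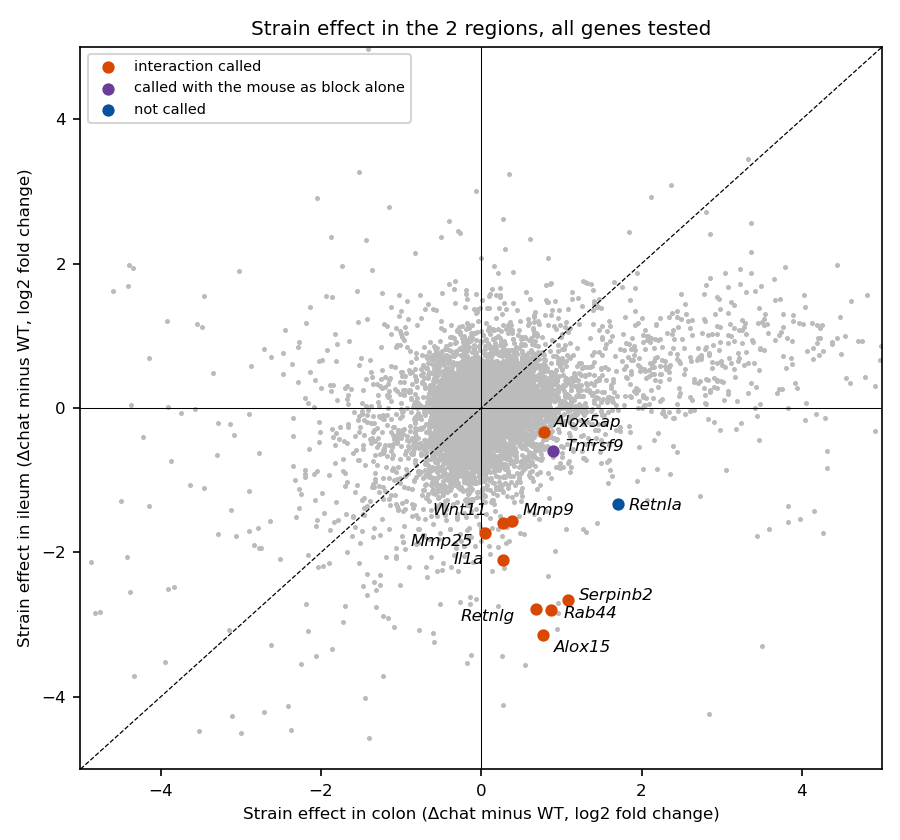
Strain effect in colon (horizontal axis) against strain effect in ileum (vertical axis), both log2 fold changes of Δchat over WT, for the genes tested (grey points; 35 lie outside the axes), with equal effects on the dashed line. The 9 genes with a called interaction lie below the dashed line with colon effects above 0, and Retnla and Tnfrsf9 lie in the same quadrant.

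Over the whole transcriptome the effects of the strain in the 2 regions had the same sign in 55.8% of genes tested. Effects of opposite sign with a size of at least 0.5 in both regions were found in 273 genes (1.80%): 140 (0.921%) higher in Δchat colon and lower in Δchat ileum, and 133 (0.875%) the other way. A further 275 genes (1.81%) had an ileum effect of at least 1 and a colon effect under 0.5 in size, 417 (2.74%) showed that pattern with the regions exchanged, and 833 (5.48%) moved by at least 0.5 in the same direction. Of the 273 opposite genes, 127 (0.836% of all tested) reached an unadjusted interaction p under 0.05. Among the 9 called genes, 4 were opposite (Serpinb2, Alox15, Rab44, Retnlg) and 4 were ileum-weighted (Wnt11, Mmp25, Il1a, Mmp9). The strain effect itself was called for 42 genes in ileum (0.276%; 10 higher, 0.0658%, and 32 lower, 0.211%) and 10 in colon (0.0658%; 3 higher, 0.0197%, and 7 lower, 0.0461%), with 2 genes in both. With 1 library left out, the ileum count ran from 8 to 145, without ileum Δchat replicates 4 and 3, and the colon count from 0 to 32, being 0 without any 1 of 10 libraries.

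Eosinophil markers varied among themselves. Of the 15 eosinophil genes listed, 11 were tested, of which 3 were called, 9 had a negative and 2 a positive interaction, with a median of -1.44. Over all genes tested 0.0592% were called, 47.1% were negative and the median was 0.021. The median of the eosinophil list ran from -2.72, without ileum Δchat replicate 2, to -1.10, without ileum Δchat replicate 4. Il5ra, an interleukin 5 receptor gene, went the other way, at 0.63 to 1.51 over the 32 alternatives, and passed in none. Beside Alox15, Rab44 and Retnlg, the eotaxin receptor gene Ccr3 read 6.73, 6.29, 5.25 and 2.34 CPM in WT ileum and 0.262, 0.872, 0.729 and 1.24 CPM in Δchat ileum. It fell in ileum (-2.70 ± 0.50 log2, adjusted p = 0.0389), and its interaction of -3.66 ± 0.70 had an adjusted p of 0.124. The eosinophil lectin gene Siglecf read 7.09, 7.19, 8.07 and 5.06 CPM in WT ileum and 2.42, 21.7, 2.36 and 1.41 CPM in Δchat ileum, with 0.319 to 1.30 CPM in WT colon and 1.24 to 2.92 CPM in Δchat colon. In ileum, 3 Δchat libraries lay below every WT library and replicate 2 above them all. Its interaction was -1.44 ± 1.03 (adjusted p = 0.675), which was negative in all 32 alternatives and passed in 1 of them, without ileum Δchat replicate 2 (adjusted p = 0.0404). Prg2, which encodes the granule major basic protein, averaged 44.6 CPM in WT and 40.99 CPM in Δchat ileum. The peroxidase gene Epx had 5 estimated counts over all 16 libraries together. In mixed cells, fewer cells of a type and less RNA per cell cannot be told apart.

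Retnlg is also among the 25 tested monocyte and neutrophil genes, of which it, Mmp9 and Mmp25 were the 3 called. Of these 25, 17 had a negative interaction, and the median was -0.17, where 0.0592% of all genes tested were called, 47.1% were negative and the median was 0.021. The median of the list ran from -0.78, without colon WT replicate 1, to -0.13, without ileum WT replicate 1. Il1r2, the decoy receptor of interleukin 1, had an interaction of -1.07 ± 0.33 (adjusted p = 0.519) with mice that did not overlap, and Cebpe, a transcription factor of late granulocyte development, one of -4.002 ± 1.09 (adjusted p = 0.509) at 1.996 CPM on average in WT ileum. Dio2, the enzyme that activates thyroid hormone, belongs to none of these groups and had an interaction of -4.38 ± 0.81 (adjusted p = 0.102): 5.48, 9.89, 4.66 and 1.78 CPM in WT ileum, and at most 0.821 CPM in every other library. Within ileum it fell (adjusted p = 0.0116).

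In 9 of the 19 regulatory T cell genes tested, the ileum minus colon difference of every Δchat mouse lay below that of every WT mouse. Of all genes tested, 2.08% showed such separation in that direction. In the rest of the 19 the mice overlapped, and none of the 19 was called by edgeR without the mouse as block. Foxp3 read 33.5, 68.5, 30.2 and 41.2 CPM in WT ileum and 12.6, 15.6, 12.8 and 13.9 CPM in colon of the same WT mice. In Δchat mice it read 12.8, 88.4, 8.49 and 10.9 CPM in ileum and 15.4, 73.5, 10.8 and 10.03 CPM in colon. Mouse 2 of the Δchat group was thus the highest of all in both regions. The ileum minus colon difference of Foxp3 was 1.397, 2.13, 1.23 and 1.56 log2 in WT mice and -0.27, 0.27, -0.35 and 0.12 in Δchat mice, without overlap (exact p = 0.0286). Any gene with separated mice has this exact p, so it restates the separation and is no independent support. The edgeR interaction of Foxp3, -1.52 ± 1.09, did not pass (adjusted p = 0.675), nor did it with the mouse as block (-1.64, adjusted p = 0.0988).

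Tnfrsf9, the costimulatory receptor 4-1BB of activated and regulatory T cells, was the gene with the smallest p in the fit with the mouse as block. It read 77.0, 94.8, 79.4 and 69.4 CPM in WT ileum and 21.6, 24.4, 22.7 and 21.7 CPM in WT colon. With Δchat it read 26.9, 137, 27.5 and 22.4 CPM in ileum and 25.2, 104, 19.7 and 19.96 CPM in colon. The WT mice held between 1.67 and 1.95 log2 units more in ileum than in colon, and the Δchat mice between 0.09 and 0.48. With the mouse as block the interaction was -1.53 (adjusted p = 0.00836), and without the block it was -1.49 ± 0.87 (adjusted p = 0.645). Without both libraries of Δchat mouse 2, an alternative added after seeing the data, it passed in both fits, at -1.57 (adjusted p = 0.0195) with the block and -1.58 (adjusted p = 0.00368) without.

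Of the 19 regulatory T cell genes tested, none was called by edgeR without the block (3 had an unadjusted p under 0.05) and Tnfrsf9 alone with it. A negative interaction was seen in 16, where 47.1% of all genes tested had one, the median was -0.48 beside 0.021, and the share of all genes tested with mice separated in that direction was 2.08%. The 9 with separated mice included Ikzf2, which encodes Helios (-1.04 ± 0.54, adjusted p = 0.640, and 0.0890 with the block), Itgae, the CD103 integrin of mucosal T cells (-1.06 ± 0.30, adjusted p = 0.510, and 0.0890 with the block), Il10 (-1.06 ± 0.44, adjusted p = 0.625, and 0.135 with the block) and Gata3 (-1.12 ± 0.46, adjusted p = 0.625). In the other 10 the mice overlapped. Among these were the checkpoint receptor gene Ctla4, a member of high level (-0.34 ± 0.43, exact p = 0.571), the semaphorin receptor gene Nrp1 (-0.12 ± 0.30, exact p = 0.600) and Il2ra, the interleukin 2 receptor CD25 (0.01 ± 0.40, exact p = 0.8286). Il10 read 34.9, 31.4, 27.8 and 33.9 CPM in WT ileum, 19.1, 40.5, 15.8 and 12.3 CPM in Δchat ileum, 7.28 to 9.42 CPM in WT colon and 8.22 to 17.5 CPM in Δchat colon. As with Foxp3, the high Δchat value in each region came from mouse 2. Without the ileum library of that mouse the median of the list was -1.06 and Foxp3 was at -3.02, and without its colon library they were at -0.18 and -0.38, the extremes of the 32 alternatives, in none of which Foxp3 passed. That mouse also had the highest macrophage gene Csf1r of its group in both regions, 180 CPM in colon and 965 CPM in ileum. For general T cell genes, the 27 tested had a median interaction of -0.10, which changed sign in 3 of the 32 alternatives, and none was called.

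**Figure D3:**
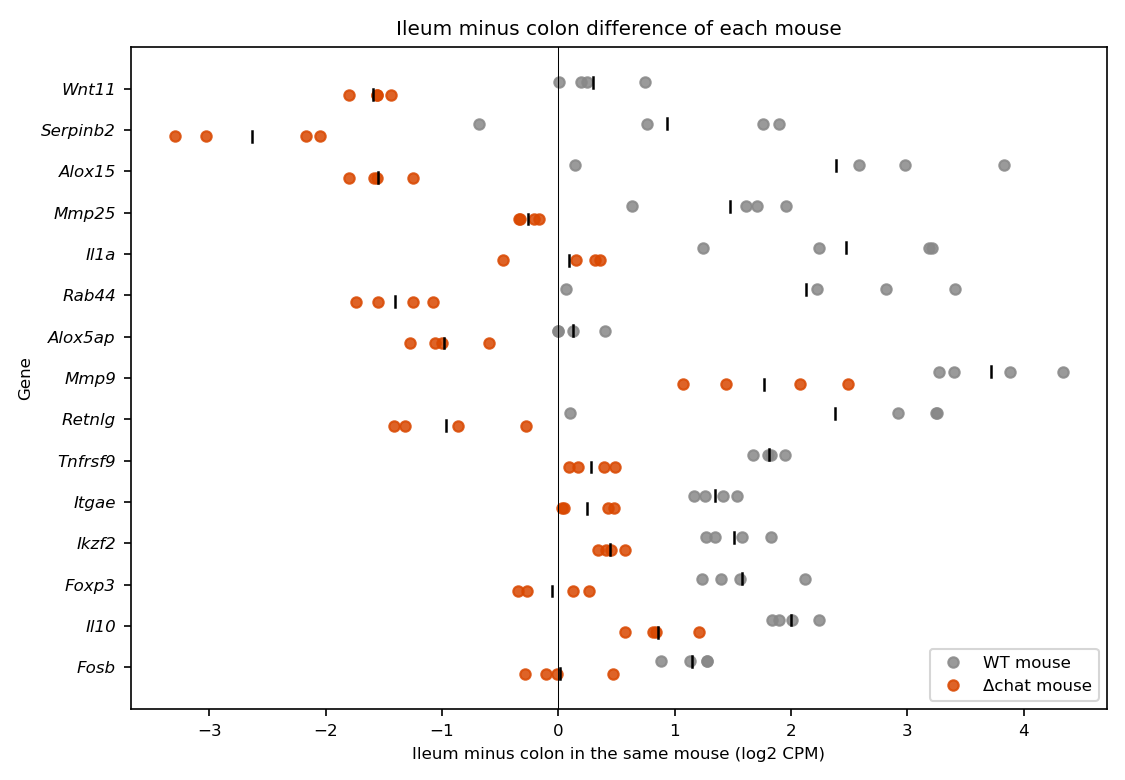
Ileum minus colon difference in log2 CPM of each mouse (points; WT grey, Δchat orange; black ticks mark group means) for the 9 called genes, Tnfrsf9, 4 further regulatory T cell genes and Fosb. For Tnfrsf9 the WT mice lie between 1.67 and 1.95 and the Δchat mice between 0.09 and 0.48. No gene shown has overlapping mice, and the regulatory T cell genes shown are all from the 9 of that list with separated mice. Members whose mice overlap, such as Ctla4 and Il2ra, are not shown.

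Immediate early genes, which cells switch on within minutes of a stimulus and which handling of tissue can raise as well, had mostly negative interactions as well. Of the 30 tested, 27 had a negative interaction with a median of -0.43, and 24 (80%) were positive in colon and negative in ileum, where 17.4% of all genes tested were. In 11 the Δchat mice lay below the WT mice without overlap, where 2.08% of all genes tested did. None was called by edgeR (18 had an unadjusted p under 0.05, beside 7.72% of all genes tested). Fosb, an AP-1 subunit and the member with the smallest p, read 3461, 4500.4, 3753 and 3959 CPM in WT ileum and 1733, 2409, 2477 and 2140.1 CPM in Δchat ileum, against 1423, 2049, 2036 and 1627 CPM in WT colon and 1751, 1737, 2660.4 and 2614 CPM in Δchat colon. WT ileum stood above the other 3 groups. The interaction of Fosb was -1.14 ± 0.24 (adjusted p = 0.194 in edgeR, 0.169 with the mouse as block). Other members were Klf4 (-0.95 ± 0.28, adjusted p = 0.510), Fos (-0.76 ± 0.24, adjusted p = 0.580), Klf2 (-0.62 ± 0.16, adjusted p = 0.465) and Fosl1 (-1.94 ± 0.69, adjusted p = 0.605). Summed over the list, the libraries ran from 31294 to 34927 CPM in WT ileum, from 24349 to 30699 in Δchat ileum, from 18377 to 23180 in WT colon and from 22157 to 29700 in Δchat colon. The part of cell isolation in these values was not tested.

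**Figure D4:**
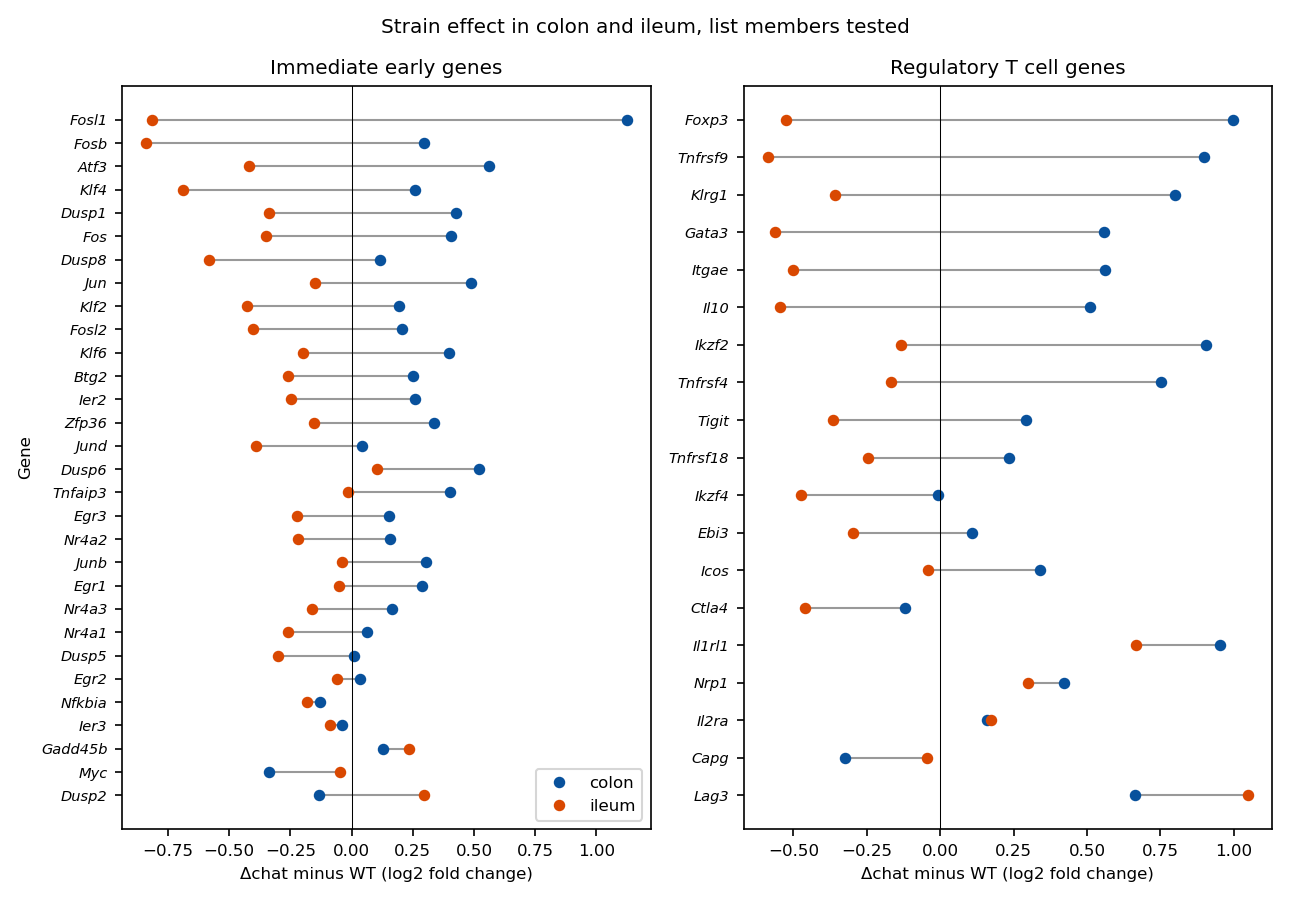
Strain effect (log2 fold change of Δchat over WT) in colon (blue) and ileum (orange) of the 30 immediate early genes and 19 regulatory T cell genes tested, sorted by interaction. In 24 of the immediate early genes and 12 of the regulatory T cell genes the colon point lies above 0 and the ileum point below.

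Type 2 lymphocyte, mast cell and macrophage genes had mostly negative interactions, none of them called by edgeR. Of 16 type 2 and innate lymphoid genes tested, 14 had a negative interaction (median -0.60). Of 15 mast cell and basophil genes tested, 13 did (median -0.55). Over all genes tested 47.1% were negative and the median was 0.021. Nmur1, the neuromedin U receptor of group 2 innate lymphoid cells, read 7.98, 11.2, 7.49 and 4.62 CPM in WT ileum, 3.07, 4.79, 3.64 and 3.43 CPM in Δchat ileum, 0.602 to 1.30 CPM in WT colon and 1.46 to 1.94 CPM in Δchat colon. Its colon groups stood apart, with Δchat higher, and its ileum groups overlapped, with an interaction of -1.80 ± 0.39 (adjusted p = 0.199). Kit, the stem cell factor receptor of mast cells, had an interaction of -0.92 ± 0.21 (adjusted p = 0.257), Il5 one of -2.95 ± 0.93 (adjusted p = 0.570) and Areg, the growth factor amphiregulin, one of -1.70 ± 0.75 (adjusted p = 0.631). Il17a, the cytokine of Th17 and related lymphocytes, read 11.97, 9.32, 3.68 and 3.73 CPM in WT ileum and 0.654, 2.12, 1.37 and 1.54 CPM in Δchat ileum. It fell in ileum (adjusted p = 0.0357), and its interaction was -3.15 ± 0.62 (adjusted p = 0.132), whereas the 18 genes of its list had a median of 0.10.

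Among macrophage genes, Retnla, a resistin-like protein of alternatively activated macrophages, had effects of opposite sign. In colon it read 8.76, 8.76, 9.07 and 8.35 CPM with WT and 27.9, 26.0, 23.9 and 36.5 CPM with Δchat. In ileum it read 9.94, 5.28, 6.55 and 6.06 CPM with WT and 0.589, 6.97, 2.44 and 1.07 CPM with Δchat. The colon groups stood apart, and in ileum Δchat mouse 2 alone lay within the WT range. Its colon value was 1.71 ± 0.47, its ileum value -1.33 ± 0.50, and the interaction of -3.04 ± 0.68 did not pass (adjusted p = 0.257). Without both libraries of Δchat mouse 2 it was -4.05 and passed (adjusted p = 0.00467), though not with the mouse as block (adjusted p = 0.0618). That alternative was added after seeing the data. Over the 28 macrophage genes tested, 26 had a negative interaction and the median was -0.50, with none called. Of all genes tested 47.1% were negative, with a median of 0.021. Csf1r (-0.54 ± 0.51) and Adgre1 (-0.65 ± 0.58), which mark the whole lineage, had adjusted p values of 0.731 and 0.716.

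No gene was called with a positive interaction by edgeR, with or without the block, although 673 genes (4.43%) had a positive and 501 (3.30%) a negative value at an unadjusted p under 0.05. DESeq2 called 8 positive and 50 negative ones. The positive gene of smallest p, Nemp1, an inner nuclear membrane protein, read 14.8, 16.1, 13.5 and 13.2 CPM in Δchat ileum and 8.63, 11.5, 11.1 and 9.68 CPM in WT ileum, with an interaction of 0.70 ± 0.15 (adjusted p = 0.194). Its ileum groups stood apart, with Δchat higher. Olfr157, annotated as an olfactory receptor, read 1.06 to 1.21 CPM in Δchat colon and 1.97 to 4.94 CPM in WT colon (interaction 1.80 ± 0.40, adjusted p = 0.256). Rnaseh2c (0.43 ± 0.10), Ndst2 (0.44 ± 0.11) and Zfp217 (0.42 ± 0.11) had smaller values, and the ribosomal genes Rps29 (0.76 ± 0.20) and Rpl38 (0.61 ± 0.16), which have many near-identical copies in the genome, are uncertain for that reason.

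No gene of the plasma cell and B cell lists had a called interaction, and most of their values were positive. Of 28 plasma cell genes, 26 had a negative colon value (median -0.74) and 25 a negative ileum value (median -0.42), and 21 interactions were positive (median 0.25). Igha, the IgA heavy chain, had a colon value of -1.26 ± 0.25, an ileum value of -0.64 ± 0.25 and an interaction of 0.62 ± 0.35 (adjusted p = 0.645). As a share of all counts, Igha differed between ileum and colon by 3.98 ± 1.34 percentage points (SD, n = 4) in WT mice and 3.73 ± 1.396 in Δchat mice (exact permutation p = 0.743), and all immunoglobulin genes by 6.97 ± 2.25 and 6.53 ± 2.57 (exact permutation p = 0.743). The Δchat minus WT value of this difference was -0.25 percentage points for Igha and -0.44 for all immunoglobulin genes. On the log2 scale it changed sign, to 0.59 for Igha (exact permutation p = 0.0857). For all immunoglobulin genes it became 0.52 (exact permutation p = 0.171). Ileum stayed above colon in both strains on either scale. Within the B cell and germinal centre list, 27 of 29 genes had a positive interaction with a median of 0.84. Nuggc, a GTPase of germinal centre B cells, fell in colon (-1.67 ± 0.24, adjusted p = 0.0372) from 9.74 to 18.6 CPM to 3.28 to 4.76 CPM, and its interaction of 1.19 ± 0.33 did not pass (adjusted p = 0.509).

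Igkv1-135, a variable segment of the kappa light chain, read 952, 799.8, 383 and 1315 CPM in WT ileum and 173, 114, 79.97 and 159 CPM in Δchat ileum, with 55.9 to 299 CPM in WT colon and 75.2 to 267 CPM in Δchat colon. All WT ileum libraries were above every other one. With the mouse as block its interaction was -2.54 (adjusted p = 0.0124), and without the block -2.57 ± 0.73 (adjusted p = 0.510). Kappa segments share long stretches of sequence, so its estimated counts may hold reads of related segments. It was named, like Tnfrsf9, because only 3 genes passed with the block.

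P2ry2, a receptor for extracellular ATP and UTP, had a called strain effect in colon and not in ileum. It read 5.09, 4.40, 6.39 and 5.47 CPM in WT colon, 11.6, 7.71, 13.1 and 11.5 CPM in Δchat colon, and 8.74 to 12.3 CPM in all 8 ileum libraries. It rose in colon (1.04 ± 0.17, adjusted p = 0.0372), its ileum value was 0.01 ± 0.17, and the interaction of -1.03 ± 0.24 did not pass (adjusted p = 0.283).

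No receptor or enzyme of acetylcholine was called. Of 30 such genes listed, 16 were tested, 8 with a positive and 8 with a negative interaction, and none had an unadjusted p under 0.05. The muscarinic receptor gene Chrm2, at 2.25 to 4.74 CPM in WT colon and 6.47 to 9.73 CPM in Δchat colon, had an interaction of -0.82 ± 0.46 (adjusted p = 0.644), and the muscarinic receptor gene Chrm3 one of -0.66 ± 0.44 (adjusted p = 0.664). In ileum, Chrm2 overlapped between strains, at 9.04 to 21.8 CPM with WT and 12.6 to 28.7 CPM with Δchat.

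Summed epithelial markers were mostly higher in Δchat colon than in WT colon. The 21 general epithelium genes summed to between 90.2 and 337 CPM in WT colon, 335 to 4893 in Δchat colon, 134 to 407 in WT ileum and 132 to 683 in Δchat ileum, and 20 had a negative interaction with a median of -2.04 and none called. That median was -0.21 without colon Δchat replicate 3, -0.08 with the epithelial mean as a covariate and 0.15 in limma-voom with quality weights, the single alternative in which it changed sign, and -2.69 at the other end, without colon WT replicate 3. None of the 21 was at 0 in all libraries. The upper end was 1 library, colon Δchat replicate 3. The ileum minus colon difference of their mean log2 CPM was 0.33 ± 1.68 in WT mice and -0.93 ± 2.18 in Δchat mice (SD, n = 4, exact permutation p = 0.400). With that epithelial mean as a covariate, 8 genes were called, 7 of the 9 among them, and without colon Δchat replicate 3 the count was 7. 

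Summed stromal and glial markers were lower in 3 of 4 Δchat ileum libraries than in any WT ileum library. The 23 stroma and smooth muscle genes summed to 8357, 5635, 7606 and 7183 CPM in WT ileum and 2596, 2517, 8303 and 3640 CPM in Δchat ileum, so that 3 Δchat libraries lay below the WT libraries and replicate 3 did not. In colon the sums were 5915 to 11292 CPM with WT and 6401 to 8890 CPM with Δchat. Col1a1, a fibrillar collagen gene, averaged 1526 CPM in WT ileum and 744.8 CPM in Δchat ileum, with 1805 CPM in replicate 3, and neither its ileum value (-1.03 ± 0.51, adjusted p = 0.474) nor its interaction (-0.88 ± 0.72, adjusted p = 0.703) passed. The median interaction of the list was -0.06, with 13 of 23 negative and none called, and it ran from -0.34 to 0.12 with 3 changes of sign. Of 12 enteric glia and neuron genes tested, 9 had a negative interaction with a median of -0.73, none called, and the median ileum value was -0.71. Sox10, a transcription factor of glia, fell in ileum from 0.899 to 4.51 CPM with WT to at most 0.171 CPM with Δchat (-4.45 ± 0.68, adjusted p = 0.0144), and its interaction of -2.09 ± 0.88 did not pass (adjusted p = 0.627). In colon Sox10 was lower with Δchat too, at 0.903 to 1.92 CPM with WT and 0.209 to 0.441 CPM with Δchat. Wnt11 read 3.27, 4.96, 4.89 and 5.01 CPM in the same Δchat ileum libraries, listed by replicate number as the stroma sums are. The part of stromal and glial cells in the ileum values, that of Wnt11 included, was not tested.

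**Figure D5:**
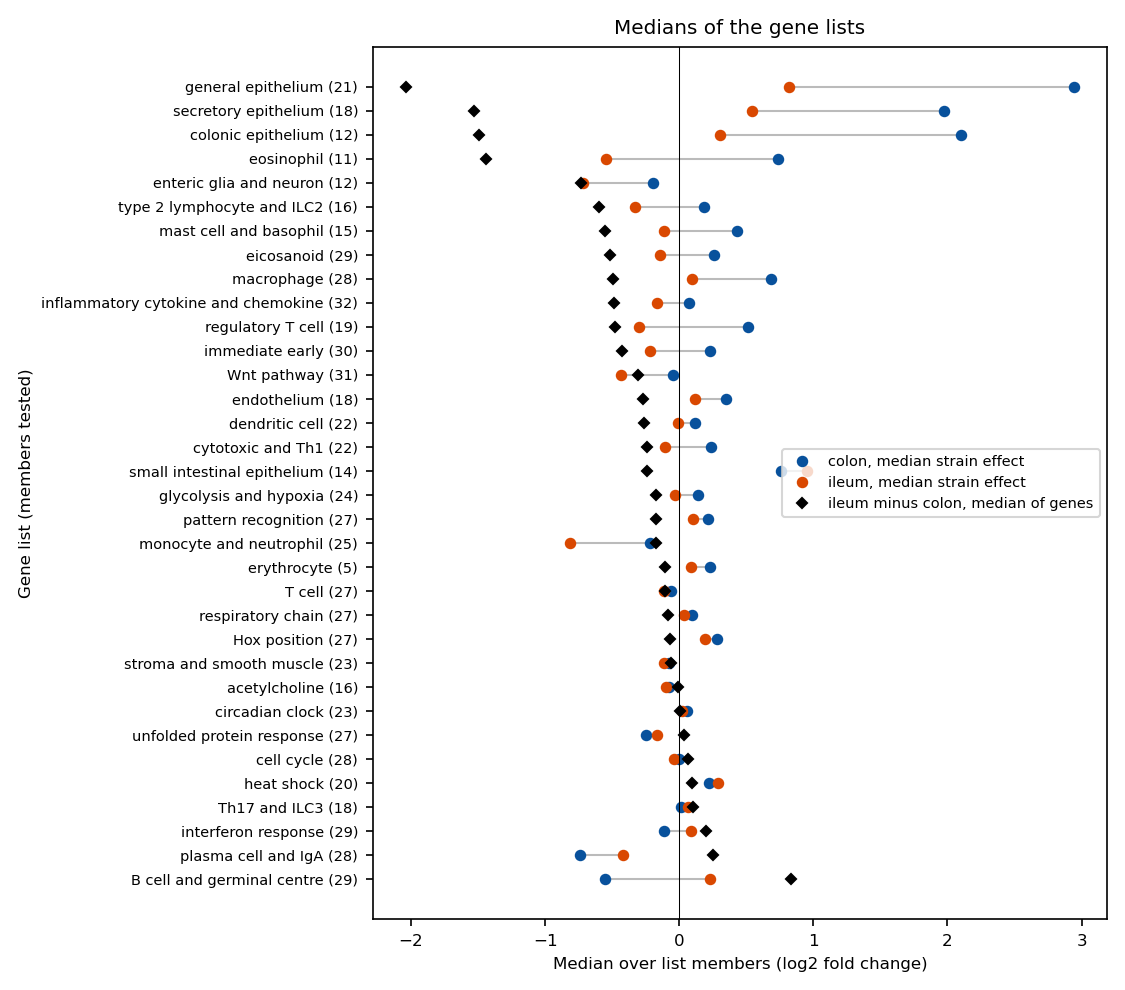
Median strain effect over the tested members of each gene list in colon (blue) and ileum (orange) and the median interaction of its genes (black diamonds), log2 scale. General epithelium lies at -2.04 (-0.21 without colon Δchat replicate 3, and 0.15 in limma-voom), eosinophil genes at -1.44 and B cell genes at 0.84, with immediate early genes at -0.43 and regulatory T cell genes at -0.48.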

How the data were processed

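Values were the authors' estimated counts for each gene. The submitters' processing notes name cutadapt 5.0, Salmon 1.4.0 and the build GRCm39. Counts were rounded. Libraries were grouped by their titles. Ileum and colon libraries of the same strain and number were taken as 1 mouse, since the series' design gives 4 mice per group and library names share the number; no label states this pairing. Deviations from group means correlated between -0.06 and 0.07 in WT and between -0.18 and 0.27 in Δchat within such pairs, and between -0.30 and 0.22 across mice; limma's consensus within pairs was 0.063. Numbers do not pair mice across strains. Genes were filtered with filterByExpr, scaled by TMM and fitted in edgeR 4.0.16 (R 4.3.3; robust quasi-likelihood, 1 mean per group, 16 libraries). Both regional strain effects came from that fit. Tests are 2-sided, with Benjamini-Hochberg adjustment over all genes and a threshold of 0.05. Per-mouse differences used log2 CPM with a prior count of 2. Single genes were tested over mice by exact permutation. The fit was tested on simulated data.

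The members, the 35 gene lists and the rule for named genes were chosen with earlier results of these data known. Named by rule were the 12 genes of smallest interaction p in each direction with a mean of at least 5 CPM in some group (leaving out antigen receptor segments, gene models and pseudogenes), up to 8 genes called in each region, Retnla, Igha, Igkc and Jchain, acetylcholine genes of at least 1 CPM, and from each list the member of smallest p and the 2 of highest level. Not all of these are printed. Other members named were chosen after their values were seen. Symbols came from an identifier table, and 35105 of 35647 identifiers matched. Alternatives were RLE scaling, other filters, DESeq2 1.42.0, limma 3.58.1 (voom), removal of antibody genes, an epithelial covariate, blocks, and leaving out libraries or mice.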

Additional observations from a re-analysis of the deposited data

Results flagged for a closer look

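The strain effect differed between ileum and colon by the interaction test in 9 genes: Wnt11 at -1.87, Serpinb2 at -3.75, Alox15 at -3.92, Mmp25 at -1.79, Il1a at -2.37, Rab44 at -3.67, Alox5ap at -1.10, Mmp9 at -1.95 and Retnlg at -3.45 on the log2 scale. With the mouse as a block it differed in 2 further genes, Tnfrsf9 at -1.53 and Igkv1-135 at -2.54. For Retnlg, the WT mouse with the lowest ileum minus colon difference, mouse 4 at 0.10 log2 units, stood apart from the other 3 WT mice. That was the 1 case among 28 groups of 4 mice examined, where chance alone sets about 1 in 20 such groups apart.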

How the results depend on the processing

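The interaction was called for 9 genes, and for 8 to 11 under RLE scaling, no filter, a filter of 1 CPM, removal of antibody genes or the epithelial covariate and without WT mouse 4. It was called for 58 in DESeq2 (all 9 among them) and 12 in voom (4 of the 9). Fits with the mouse as a replicate block called 3 each (edgeR, limma with the mouse as random effect, and limma on per-mouse differences). Leaving out 1 library gave 0 to 35 calls. Leaving out both libraries of a mouse, chosen after seeing the data, gave 18 for Δchat mouse 2 (5 with the block), 0 for Δchat mouse 3 (2 with the block) and 14 for WT mouse 4 with the block, of which 1 was positive. The sign of the 9 genes, which were chosen in the same libraries, was the same in all 32 alternatives, while Retnlg was called in 9 of them and Wnt11 in 20.

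The 10 strain calls in colon became 38 with the epithelial covariate, 418 in DESeq2, 52 in voom, 1 with the colon libraries alone, 0 with the replicate number as block, and 0 to 32 with 1 library left out. The 42 in ileum became 84, 303, 759, 3 and 0, and 8 to 145. The 752 genes with separated mice became 954 to 1804 with 1 mouse left out. The Δchat minus WT value of the ileum minus colon immunoglobulin share was -0.44 percentage points and became 0.52 as log2 shares. That of Igha went from -0.25 to 0.59. Without 1 mouse the percentage point values ran from -1.33 to 0.53 and, for Igha, from -0.77 to 0.30. The causes of these changes were not tested. With 4 mice a strain, exact tests reach 0.0286 at best, so no single gene can pass adjustment over all genes by permutation.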

Other observations

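Glycolysis and hypoxia genes, a set that answers to oxygen and to cell activation, had a negative interaction in 22 of 24 tested members, with a median of -0.17 and a call in none. Interferon response genes leaned the other way, with 21 of 29 positive and a median of 0.20, and a sign that changed in 2 of 32 alternatives. Cell cycle genes had a median of 0.07, which changed sign in 6 of them. The dendritic cell receptor gene Flt3, which supports dendritic cell development, read 27.9 to 32.6 CPM in WT colon and 36.3 to 46.5 CPM in Δchat colon, with an interaction of -0.65 ± 0.16 (edgeR adjusted p = 0.446).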
